A study of Homo sapiens with 90 samples.

Results

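The genes described here are the expressed members of the numbered ZNF family of zinc finger proteins in 6 human cancer cell lines treated with kinase inhibitors. A gene was a member when its symbol was ZNF followed by a number and its mean level over the 18 vehicle libraries was 10 CPM or more, where CPM are counts per 1000000 counts of the library. This gave 168 members among 465 genes with such a symbol and 53893 gene IDs in all. The members were chosen by their vehicle levels, which are given below as a description. The members just inside the limit were ZNF341 at 10.2 CPM, ZNF558 at 10.1 CPM and ZNF548 at 10.1 CPM, and those just outside it were ZNF174 at 9.88 CPM, ZNF680 at 9.87 CPM and ZNF789 at 9.86 CPM.

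The 90 RNA-seq libraries came from the established lines A375 (skin), A549, H3122 and PC9 (lung), N87 (stomach) and RT112 (bladder), each in 5 arms of 3 libraries. The combination arm held THZ1, a covalent inhibitor of the transcriptional kinase CDK7, together with the drug aimed at the line's driver kinase pathway, for 48 h. The THZ1 arm held THZ1 alone for 48 h, at 150 nM in A549, 100 nM in RT112 and PC9, 50 nM in H3122 and A375 and 25 nM in N87. The targeted drugs were vemurafenib at 1 uM in A375, GSK1120212 (trametinib) at 200 nM in A549, crizotinib at 250 nM in H3122, lapatinib at 100 nM in N87, erlotinib at 1 uM in PC9 and BGJ398 at 1 uM in RT112, and each was given for 48 h or for 7 days. The controls received 0.1% DMSO for 48 h, and the 7-day arm was set against the same drug at 48 h because the design held no 7-day vehicle. A375 was grown in DMEM and the other lines in RPMI, and each line had its own drug and THZ1 dose, so line, drug and dose cannot be told apart.

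The libraries held 5.64 to 14.36 M expected counts each (median 11 M). One vemurafenib library of A375 carries a lung label in the tissue field and was kept. The replicate 1 libraries of RT112, and the 7-day replicate 1 of H3122, lay away from the rest of their groups. The counts of called members across lines stayed within 1.5 times without them. The THZ1 arm of RT112 held no replicate 1, so in RT112 that replicate is in 1 arm only of each comparison with THZ1. With single replicates left out, the members called there ran from 41 to 55 for THZ1 against DMSO, in place of 50. For the combination against THZ1 they ran from 54 to 69, in place of 63. The lines expressed the markers of their labels in part. SOX10, a neural crest factor, stood at 953 CPM in A375 DMSO libraries, but the pigment genes PMEL, MLANA, TYR, DCT and TYRP1 were at 1.00 CPM or less there. NKX2-1, the lung lineage factor, was at 227 CPM in H3122 and under 1 CPM in A549 and PC9. SFTPB, SFTPC and SCGB1A1 were under 1 CPM in H3122, A549 and PC9. ERBB2 reached 16394 CPM in N87 and CDX2 75.6 CPM. There CDH17, TFF1 and TFF3 were under 1 CPM and MUC5AC was at 4.47 CPM, against 95.9 CPM in A549 and 102 CPM in H3122. In RT112, GATA3 stood at 286 CPM, PPARG at 151 and UPK2 at 28.6 CPM, while UPK1A was at 4.93 and UPK3A at 0.0249 CPM. UPK2 was at 38.6 CPM in PC9. All these values are DMSO means. Of the blood genes CD14, PTPRC, CD3E and HBB the highest DMSO level was 1.17 CPM, for CD14 in H3122. Of the fibroblast and endothelial genes, COL1A1 reached 151 CPM in H3122 and LUM 137 CPM in RT112, while COL3A1 was at 0.20 CPM or less in every line.

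C2H2 zinc finger proteins read DNA through arrays of short finger domains, each held together by a zinc ion bound by 2 cysteines and 2 histidines. Many also carry a KRAB box, which recruits the corepressor TRIM28 (KAP1) and, through it, the histone methyltransferase SETDB1 and heterochromatin proteins of the CBX family. KRAB zinc finger genes are known as repressors of transposable elements, and many lie in clusters on chromosome 19. Members without a KRAB box are more varied and include RNA-binding, ribosome-associated and developmental proteins.

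Of the 168 members, 57 had a KRAB box in the longest open reading frame of at least 1 transcript, 16 scored between the limits and 95 had none. The median number of C2H2 fingers was 12 in the KRAB members and 7 in the members without a box, and the whole family ran from 0 to 33. Chromosome 19 held 51 members, of which 30 had a KRAB box. The KRAB members were expressed at a lower level, with a median of 14.5 CPM in DMSO against 32 CPM in the members without a box. Counts were whole in every library for 76 members, while 53 had a fractional count in 50% of the libraries or more. Among the members named below, ZNF629 and ZNF598 were fractional in 100% of libraries, ZNF609 in 98.9%, ZNF511 in 97.8% and ZNF503 in 93.3%. Whether fractional counts come from reads shared between near-identical members was not tested. Values of all members with fractional counts, on chromosome 19 or not, carry that uncertainty.

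Promoters are shown for ZNF358 and ZNF362, called up with the targeted drug and called down with the combination against it. They are also shown for 2 neighbouring chromosome 19 genes that were near 0 in A549 and H3122, ZNF468 and ZNF320. Each is the 250 bases before the annotated start in RefSeq on GRCh38.p14, 5′ to 3′ on the strand of the gene, with GGGCGG or its reverse complement in capitals. The bases just after the start were found in a GENCODE transcript of ZNF358, ZNF468 and ZNF320 but in none of ZNF362, whose start rests on RefSeq alone.
ZNF358 promoter, chr19:7515853-7516102, forward strand: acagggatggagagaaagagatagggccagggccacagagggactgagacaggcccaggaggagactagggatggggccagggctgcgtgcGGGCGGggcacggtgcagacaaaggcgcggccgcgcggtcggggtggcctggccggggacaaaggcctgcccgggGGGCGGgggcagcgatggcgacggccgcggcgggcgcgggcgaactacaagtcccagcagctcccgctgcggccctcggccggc
ZNF362 promoter, chr1:33256242-33256491, forward strand: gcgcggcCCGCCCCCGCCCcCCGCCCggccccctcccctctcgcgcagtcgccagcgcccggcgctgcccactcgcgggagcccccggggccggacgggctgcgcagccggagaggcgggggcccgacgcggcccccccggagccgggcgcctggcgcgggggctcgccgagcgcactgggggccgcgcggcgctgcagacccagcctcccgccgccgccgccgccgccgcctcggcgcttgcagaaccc
ZNF468 promoter, chr19:52857620-52857869, reverse strand: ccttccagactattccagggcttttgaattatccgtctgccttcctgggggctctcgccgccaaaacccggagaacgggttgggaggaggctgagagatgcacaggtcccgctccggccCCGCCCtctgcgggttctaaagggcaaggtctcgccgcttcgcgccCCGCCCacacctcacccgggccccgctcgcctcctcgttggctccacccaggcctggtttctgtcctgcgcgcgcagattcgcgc
ZNF320 promoter, chr19:52897695-52897944, reverse strand: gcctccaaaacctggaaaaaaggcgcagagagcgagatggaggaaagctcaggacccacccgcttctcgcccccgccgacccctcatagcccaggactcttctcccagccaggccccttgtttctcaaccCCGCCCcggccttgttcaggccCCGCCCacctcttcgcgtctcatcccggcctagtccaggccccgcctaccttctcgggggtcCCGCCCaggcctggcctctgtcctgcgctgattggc

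The GGGCGG box, bound by SP and KLF factors, was present in each of these promoters as shown. Over the window from 250 bases before to 50 after the start, counted on both strands, 99 of the 144 members with a RefSeq promoter held GGGCGG, or 68.8%, against 72.0% of 9139 genes tested across lines and 44.6% of all 27305 promoters. The ETS core CCGGAA was held by 77 members, 53.5%, against 31.9% of the genes tested and 17.6% of all promoters. TATAAA was found in 4 members, 2.78%, against 5.08% of the genes tested. Members held a median of 25 CpG in 300 bases, close to the 27 of the genes tested. These matches describe letters in the window and say nothing of which factors bind.

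Under DMSO the member median was 22.6 CPM, and the highest was ZNF207, a spindle and kinetochore protein also called BUGZ, at 188 CPM. Next came ZNF664 at 176 CPM, ZNF609 at 117, ZNF598 at 115 and ZNF106 at 112 CPM. ZNF598 is the ubiquitin ligase that senses collided ribosomes, and ZNF106 binds RNA. Per kilobase of transcript the order changed: ZNF207 stood at 98.8 CPM per kb, ZNF787 at 37.3, ZNF664 at 34.5 and ZNF598 at 34.2, while ZNF609 had 13.4 and ZNF106 15.3 CPM per kb.

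Across lines, 48 members had DMSO levels within 1 unit of log2 CPM between the highest and the lowest line, 42 spanned over 2 units and 19 over 4 units. The median range was 1.33 units. A549 had the lowest level for 60 members and the highest for 13, whereas A375 had the highest for 43 and PC9 for 42. The median member stood at 16.1 CPM in A549, 18.6 in H3122, 19.6 in N87, 21.4 in RT112, 23.8 in A375 and 24.4 CPM in PC9. The sum over all members was 4519 ± 61 CPM in A549 DMSO libraries and 5749 ± 86 CPM in A375 (SD, n = 3 each), with the other lines between them.

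Of the members, 13 were near 0 in at least 1 line. They made 22 pairs of a member and a line under 1 CPM in DMSO, 10 of them in A549, 4 in H3122, 3 in N87, 2 each in PC9 and RT112 and 1 in A375. In 19 of the 22 pairs the member stayed under 1 CPM in all 15 libraries of that line, treated libraries included. ZNF331, an imprinted KRAB gene, averaged 0.0303 CPM in N87 DMSO libraries and did not pass 0.234 CPM in any N87 library, against 14.0 to 36.6 CPM in the other lines. ZNF618, which lacks a KRAB box, was at 0.115 CPM in PC9 and at 30.2 to 72.9 CPM elsewhere. ZNF532 was at 0.344 CPM in RT112 and at 11 to 81.4 CPM elsewhere. ZNF22 was listed at 0 in all 3 A549 DMSO libraries, and 3 counts over the 3 libraries together would be 0.0867 CPM, an upper limit for counting error only. It was at 0.226 CPM in RT112, and in the remaining lines it stood at 14.6 to 34.9 CPM.

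ZNF750, a factor of epidermal differentiation, had the widest range of lines. It averaged 112 CPM in RT112, 12.6 in H3122 and 5.37 in PC9, and 0.127 CPM or less in A375, A549 and N87. Over the lines other than RT112 its mean was under 10 CPM, so it is a member through RT112. Its range, and its fall there with THZ1 against DMSO, thus rest on the libraries that chose it. The RT112 mean was raised by the replicate 1 library, which lay away from its group, and the library values are given below with THZ1. ZNF469, a gene of brittle cornea syndrome, stood at 61.8 CPM in PC9, 34.7 in A375 and 5.08 in RT112, and under 0.4 CPM in H3122, N87 and A549. ZNF91, a repressor of SVA retrotransposons, was at 0.0848 CPM in A549 and at 3.36 to 18.3 CPM elsewhere.

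ZNF28, ZNF468 and ZNF320, which follow each other on chromosome 19 and each carry a KRAB box, were near 0 in both A549 and H3122. In A549 DMSO libraries they averaged 0, 0 and 0.0584 CPM, in that order, and in H3122 0.228, 0.519 and 0.163 CPM. In A375 they stood at 6.10, 8.07 and 19.6 CPM, and in PC9 at 18.4, 24.7 and 29.1 CPM. ZNF160, further along the chromosome, was at 0.139 CPM in A549 and 7.10 CPM in H3122. The low levels ran beyond the members. Of 28 ZNF genes in RefSeq order from ZNF766 to ZNF331, 22 were under 1 CPM in A549, 16 in H3122 and 12 in N87, against 6 in A375, 5 in RT112 and 3 in PC9. Of the 28, 8 are members, and the rest averaged under 10 CPM over the DMSO libraries by the rule of membership. Low values among the rest were thus partly set in advance. No share of ZNF genes outside these 28 is given for comparison. The stretch was chosen after its values were seen. Its outer members ZNF766 and ZNF761 were at 11.5 CPM or more, except ZNF761 at 7.98 CPM in A375, and ZNF331 at the far end was near 0 in N87 only. Counts of these genes may share reads: ZNF468 was fractional in 71.1% of libraries, ZNF28 and ZNF160 in 65.6% and ZNF320 in 54.4%.

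**Figure D1:**
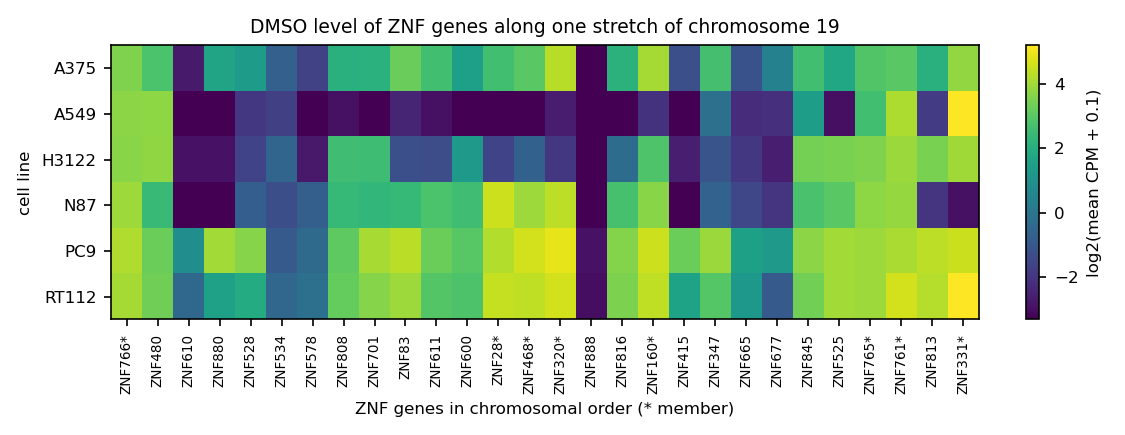
Mean DMSO level of 28 ZNF genes (columns, in the RefSeq order along chromosome 19, members marked by an asterisk) in 6 lines (rows), as log2(mean CPM + 0.1), with yellow high and dark blue near 0. A549 is dark for 22 of the 28 genes and H3122 for 16, while PC9 is dark for 3, and ZNF331 is dark in N87 alone.

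Treatment effects across lines were tested with the line as the replicate, on the 155 members that passed a filter of 1 CPM, met by 3 or more libraries in each line. The remaining 13 are the members that were near 0 in a line. A member was called at an adjusted p under 0.05 from edgeR's quasi-likelihood test with Benjamini-Hochberg adjustment over all 11875 genes tested. In these bulk libraries fewer cells of a kind and less RNA per cell cannot be told apart, and CPM show only a gene's share of the RNA counted.

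After 48 h of the targeted drug against DMSO, 34 members rose and 13 fell. Without a filter on low counts 22 were called, 11 up and 11 down. Of all genes tested, 18.6% were called up and 18.5% called down, so 21.9% of members up was near the background and 8.39% down was below it. The median change of the members was 0.15 on the log2 scale, against 0.05 for all genes tested. The split differed by protein class: 16 of 50 KRAB members rose and 2 fell, a share of 32% up, while 14 of 89 members without a KRAB box rose and 9 fell. On chromosome 19, 13 of 44 members rose and 4 fell. No test of these differences between classes was made.

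ZNF362, a 6-finger protein related to ZNF384, rose most. Its lowest, median and highest levels were 21.6, 55.2 and 76.3 CPM over the 18 targeted libraries, against 8.06, 25.0 and 45.3 CPM over the 18 DMSO libraries. Within each of the 6 lines every targeted library was above every DMSO library, and the change across lines was 0.91 ± 0.19 (log2, SE; edgeR adjusted p = 0.00109). ZNF358 had 24.4, 59.3 and 166 CPM in the targeted libraries, against 10.7, 34.5 and 118 CPM in DMSO, again with no overlap within any of the 6 lines. Its change was 0.85 ± 0.18 (SE; edgeR adjusted p = 0.00132).

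ZNF251, a KRAB gene of chromosome 8, rose by 0.85 ± 0.14 (SE; edgeR adjusted p = 0.000175), with line changes from 0.51 to 0.96. Its medians were 26.5 CPM with the targeted drug and 16 CPM with DMSO. By the interaction of line and arm its change was not called different between lines (edgeR adjusted p = 0.0658). ZNF827, which brings the NuRD complex to telomeres, ZNF516, a coactivator of brown fat genes, and ZNF277 also rose, by 0.66, 0.63 and 0.62. None of their targeted and DMSO libraries overlapped within a line. Overlap was judged on CPM throughout, while the log2 changes also carry TMM scaling. By that scale ZNF827 changed by only 0.05 in N87, against 0.35 to 0.95 in the other lines. The ZNF516 call was lost without a filter on low counts (edgeR adjusted p = 0.0504). Among the KRAB members, ZNF84, ZNF12 and ZNF655 were called up in each of the 6 lines separately, as were ZNF251, ZNF358 and ZNF362. These 6 are 6 of 155 members, and 3.72% of 12036 genes tested in every line were called up in 6. ZNF84, ZNF12 and ZNF655 were named after their values were seen.

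Among the members that fell, ZNF367 fell most, by 1.36 ± 0.45 (log2, SE; edgeR adjusted p = 0.0208). Its lowest, median and highest levels were 1.89, 13.4 and 52.3 CPM with the targeted drug, against 21.3, 41.3 and 58.8 CPM with DMSO. The groups did not overlap within 5 lines and did in H3122, where the line change was -0.16, while in PC9 it was -4.20. Without A549 or without RT112 the call was lost (edgeR adjusted p = 0.0781 and 0.0649). ZNF511 fell by 0.59 ± 0.13 (SE; edgeR adjusted p = 0.00162) and its groups did not overlap in any of the 6 lines. It was called down in every line, as were ZNF142 and ZNF598, and 8.16% of genes tested in 6 lines were called down in all of them. ZNF511 counts were fractional in 97.8% of libraries.

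ZNF473, which takes part in processing the ends of histone transcripts, fell by 0.58 ± 0.15 (SE; edgeR adjusted p = 0.00472), with a line change of -0.01 in H3122 and of -1.02 to -0.67 in the other lines. ZNF121 fell by 0.59, ZNF202, a repressor of lipid transport genes, by 0.60 and ZNF689, a KRAB gene, by 0.54. Of these, ZNF202 lost its call without A549, PC9 or RT112 (edgeR adjusted p = 0.0538 to 0.102), and ZNF689 without A549 or N87 (0.0515 to 0.0632). Of the 47 called members, 24 kept the call whichever single line was left out, 19 of them up and 5 down.

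**Figure D2:**
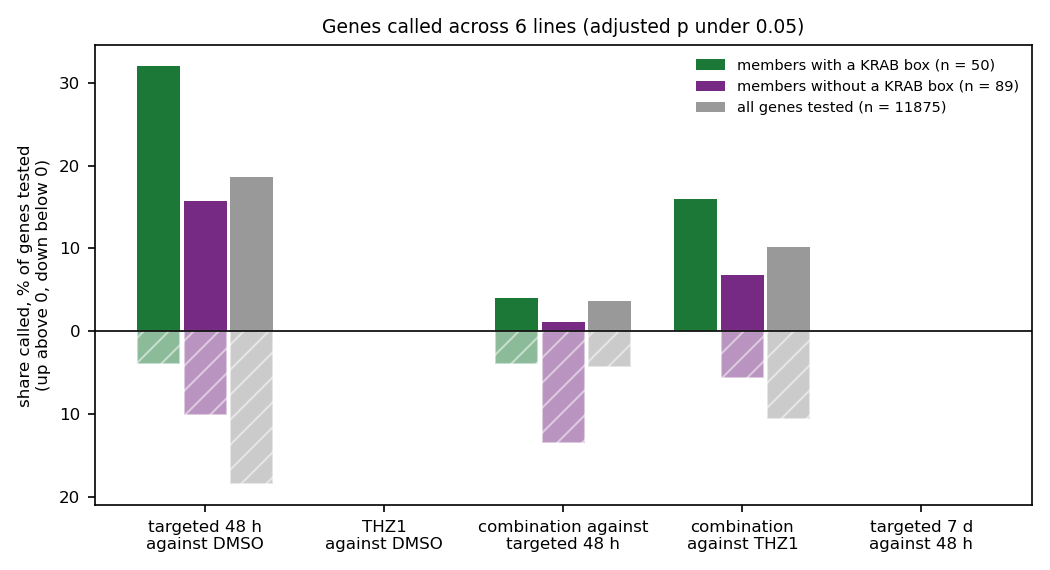
Share of genes called across 6 lines (vertical axis, % of genes tested, up above 0 and down below 0 in pale hatched bars) for members with a KRAB box, members without one and all genes tested, in 5 comparisons. With the targeted drug at 48 h, 32% of KRAB members were called up and 4.0% down, against 18.6% and 18.5% of all genes, and no member was called with THZ1 alone or between 7 days and 48 h.

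Within single lines the members with the largest called changes differed. With vemurafenib, ZNF608, a relative of ZNF609, had 141, 111 and 129 CPM in A375, against 36.9, 32.3 and 33.7 CPM with DMSO, a rise of 1.89 ± 0.09 (log2, SE; edgeR adjusted p = 8.1e-13). ZNF618 had 12.6, 12.4 and 11.8 CPM in the same libraries, against 50.3, 43.7 and 53.4 CPM with DMSO, and fell by 2.03. The 3 libraries of each arm did not overlap for either gene. With erlotinib in PC9, ZNF704 had 124, 140 and 125 CPM, against 55.7, 52.4 and 53.1 CPM with DMSO, a rise of 1.40. In H3122, ZNF319 had 39.5, 43.7 and 38.4 CPM with crizotinib, against 14.4, 12.7 and 12.1 CPM with DMSO, a rise of 1.53.

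ZNF469 rose with the targeted drug in RT112, with 25.4, 28.1 and 24.2 CPM under BGJ398 against 5.87, 3.96 and 5.42 CPM under DMSO (2.19 ± 0.11, SE; edgeR adjusted p = 5.2e-11). In N87 it had 1.90, 1.01 and 2.38 CPM under lapatinib, against 0.192, 0.389 and 0.455 CPM under DMSO. ZNF358 rose most in A549, with 28.7, 28.3 and 30.7 CPM under trametinib against 10.7, 12.3 and 11.7 CPM under DMSO (1.35 ± 0.09, SE). In H3122 the member that fell most was ZNF593, a factor of ribosome assembly, with 25.6, 23.6 and 25.3 CPM under crizotinib against 33.6, 32.3 and 34.2 CPM under DMSO. In RT112 it was ZNF697, which fell by 1.51. No label says that the 3 libraries of a group are separate cultures, and p-values within lines then measure the spread between libraries, which may be technical.

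By line, the members called at 48 h with the targeted drug were 62 up and 44 down of 167 in A375, 41 and 58 of 159 in A549 and 50 and 14 of 165 in H3122. They were 69 up and 30 down of 166 in N87, 62 and 40 in PC9 and 52 and 46 in RT112. Of all genes tested in a line, 34.3% were called up and 32.9% down in A375, 36.8% and 37.4% in A549 and 22.0% and 24.1% in H3122. The shares were 35.5% and 35.4% in N87, 35.2% and 32.8% in PC9 and 34.2% and 35.1% in RT112. Members called down were thus fewer than the background share in A375, H3122, N87, PC9 and RT112, and near it in A549, and members called up were fewer than it in A549. By the interaction of line and arm, 141 of 155 members differed between lines, close to the 93.7% of all genes. The error of the interaction test is the spread between libraries of a group, which may be technical.

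THZ1 alone gave no member called across the 6 lines against DMSO, of 155 tested, while 0.0589% of all genes were called up and 0.0253% down. At an unadjusted p under 0.05 there were 18 members, 6 higher and 12 lower, against 11.4% of all genes. DESeq2 called 2 members down, ZNF76 and ZNF358 (adjusted p = 0.0203 and 0.0441), and 1.63% of all genes. A fit of the 2 arms alone called 4 down, adding ZNF496 and ZNF704, and 5.84% of all genes. ZNF358 had 5.28, 25.9 and 78.8 CPM (lowest, median, highest) over 18 THZ1 libraries, against 10.7, 34.5 and 118 CPM over 18 DMSO libraries. All THZ1 libraries were below all DMSO libraries in each of the 6 lines, and the change across lines was -0.66 ± 0.18 (SE; edgeR adjusted p = 0.115).

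ZNF76, a relative of ZNF143 that activates small nuclear RNA promoters, had 12.6, 19 and 39.5 CPM with THZ1, against 14.6, 28.2 and 60.9 CPM with DMSO, a change of -0.56 ± 0.15 (SE; edgeR adjusted p = 0.0981). Its groups overlapped in N87 and RT112. ZNF740 had a change of -0.36 (edgeR adjusted p = 0.172). ZNF622, a factor of large ribosomal subunit assembly, had 35.5, 62.5 and 126 CPM with THZ1, against 25.4, 46.5 and 78.4 CPM with DMSO, and was higher in each of the 6 lines without overlap (0.44 ± 0.15, SE; edgeR adjusted p = 0.208). ZNF576 and ZNF428 were 0.45 and 0.35 higher, with adjusted p of 0.225 and 0.310. ZNF358 and the members of this paragraph were picked for the same direction in all 6 lines, so that direction adds no support. No share of all genes without overlap is given for comparison.

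Tested line by line, ZNF358, ZNF704 and ZNF496, the last a partner of the methyltransferase NSD1, were called down with THZ1 in each of the 6 lines. These were 3 of 155 members, against 1.67% of all genes. For ZNF358 the 6 changes ran from -0.89 to -0.39 and the largest adjusted p was 0.000517. ZNF704 ran from -1.99 in A375 to -0.21 in A549 (edgeR adjusted p = 0.0452), and ZNF496 from -0.55 to -0.17 (largest edgeR adjusted p = 0.0446). The members called in single lines were 41 up and 44 down in A375, 40 and 33 in A549, 7 and 15 in H3122, 29 and 21 in N87, 35 and 61 in PC9 and 15 and 35 in RT112. Of all genes, 26.5% were called up and 28.9% down in A375, 25.0% and 21.5% in A549, 10.8% and 12.3% in H3122, 14.1% and 16.3% in N87, 26.1% and 27.7% in PC9 and 21.0% and 20.4% in RT112. In PC9 the 36.7% of members called down was above the background, and in RT112 the 9.04% called up was below it. Members called up were also below it in H3122, 7 of 165, and in PC9, 35 of 166. The 22 calls in H3122 were 12 without DMSO replicate 4. By the interaction test 113 of 155 members differed between lines, against 83.9% of all genes.

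Among single genes with THZ1, ZNF28 rose in A375 with 23.0, 18.3 and 18.8 CPM, against 4.94, 6.83 and 6.52 CPM with DMSO (1.56 ± 0.13, SE; edgeR adjusted p = 1.6e-08). ZNF704 fell in A375 with 1.42, 1.70 and 1.39 CPM, against 7.28, 4.50 and 4.93 CPM with DMSO. ZNF185, a LIM domain protein of the actin cytoskeleton despite its name, rose in RT112 with 132, 136 and 121 CPM, against 64.1, 62.0 and 71.4 CPM with DMSO (0.90 ± 0.06, SE). ZNF703, a gene of the NET family, rose in PC9 with 20.3, 21.6 and 20.5 CPM, against 9.03, 10.6 and 15 CPM with DMSO. ZNF750 had 24.8, 29.7 and 27.7 CPM in RT112 with THZ1, against 223, 52.3 and 59.1 CPM with DMSO. The 223 CPM are replicate 1, and without it the change of -2.11 became -1.09 and the call was lost (edgeR adjusted p = 0.174). The call was also lost without THZ1 replicate 2 (edgeR adjusted p = 0.0551).

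The combination was set against the targeted drug alone to show what THZ1 added. Across lines 5 members rose and 16 fell, or 3.23% up and 10.3% down, against 3.7% and 4.34% of all genes. In the fit of the 2 arms alone 1 was called, and without a filter on low counts 4. The median member change was -0.10 and that of all genes 0.00. Members without a KRAB box made up most of those that fell: 12 of 89 fell and 1 rose, while 2 of 50 KRAB members fell and 2 rose. This comparison shares the 18 targeted libraries with the comparison of targeted drug and DMSO, and the values of the 2 comparisons are therefore not independent.

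ZNF358 fell most, with 14.5, 28.2 and 78.5 CPM (lowest, median, highest) over 18 combination libraries, against 24.4, 59.3 and 166 CPM over 18 targeted libraries. Every combination library was below every targeted library within each of the 6 lines, and the change was -1.06 ± 0.18 (SE; edgeR adjusted p = 0.00192). Line means with the combination were 76.9 CPM in PC9, 47.5 in A375, 32 in N87, 23.7 in RT112, 19.8 in H3122 and 15.8 CPM in A549. With DMSO they were 115, 77.8, 35.4, 32.9, 15.1 and 11.6 CPM in the same order. ZNF76 had 11.6, 18.3 and 34.9 CPM with the combination, against 16.2, 33.0 and 64.7 CPM with the targeted drug, and fell by 0.81 ± 0.15 (SE; edgeR adjusted p = 0.00232). Its groups overlapped in A549 only, and its call was lost in the fit of the 2 arms alone (edgeR adjusted p = 0.0501).

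Only these 2 of the 21 called members kept the call whichever single line was left out. Without PC9, 2 of the 21 kept it, without RT112 4, without A375 6, without N87 11, without H3122 16 and without A549 all 21. ZNF362 fell by 0.63, ZNF629 by 0.68, ZNF516 by 0.63 and ZNF605, a KRAB gene, by 0.62. Each was lower in all 6 lines, which was a condition for naming it. Each of these 4 lost its call without PC9 or RT112, as well as without A375 for ZNF362, ZNF516 and ZNF605 and without N87 for ZNF362 and ZNF629 (edgeR adjusted p = 0.0550 to 0.182). They also lost it in the fit of the 2 arms alone (0.0678 to 0.0997) and without a filter on low counts (0.0638 to 0.103), and ZNF362 with filterByExpr (0.0566).

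ZNF213, a protein with a SCAN domain and fingers, rose most with the combination. It had 18.1, 45.4 and 93.3 CPM over the combination libraries, against 13.7, 27.0 and 35.4 CPM over the targeted libraries, with no overlap in any of the 6 lines (0.76 ± 0.20, SE; edgeR adjusted p = 0.0203). In PC9 and RT112 the line changes were 1.39 and 1.33, and in the other 4 lines 0.32 to 0.47. ZNF330, a nucleolar protein, rose by 0.58 ± 0.13 (SE; edgeR adjusted p = 0.00792), ZNF263 by 0.47, ZNF26 by 0.45 and ZNF317 by 0.38. These calls were lost without A375 (ZNF213, ZNF330, ZNF26, ZNF317), PC9 (all 5), RT112 (all but ZNF330) and H3122 or N87 (ZNF26 and ZNF317), with edgeR adjusted p of 0.0506 to 0.249. All 5 were also lost in the fit of the 2 arms alone (0.0750 to 0.135), all but ZNF330 without a filter on low counts (0.0578 to 0.182), and ZNF26 and ZNF317 with filterByExpr (0.0694 and 0.0589). ZNF213, ZNF263 and ZNF330 were called up in each of the 6 lines, and ZNF358 and ZNF609 down. That is 3 and 2 of 155 members, against 1.62% and 1.76% of all genes.

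**Figure D3:**
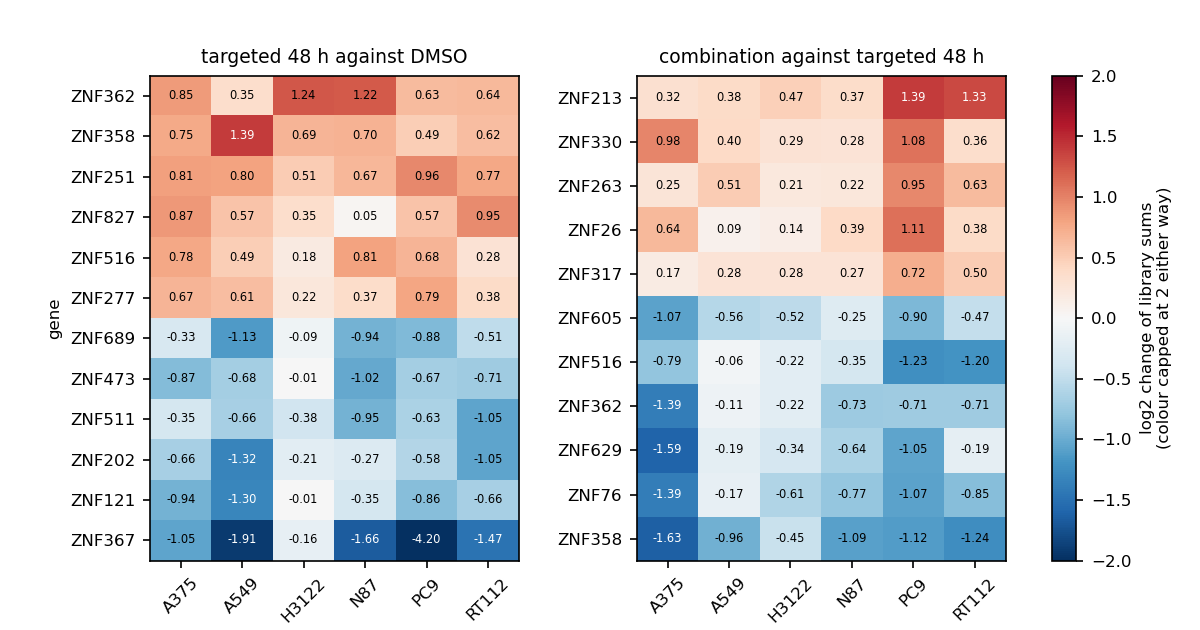
Log2 change of the library sums in each line (columns) for the named members (rows), with the targeted drug at 48 h against DMSO on the left and the combination against the targeted drug on the right; red is higher and blue lower in the treated arm named first, and the colour is capped at 2. ZNF358 is 0.49 to 1.39 higher on the left and 0.45 to 1.63 lower on the right, and ZNF367 reaches -4.20 in PC9.

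**Figure D4:**
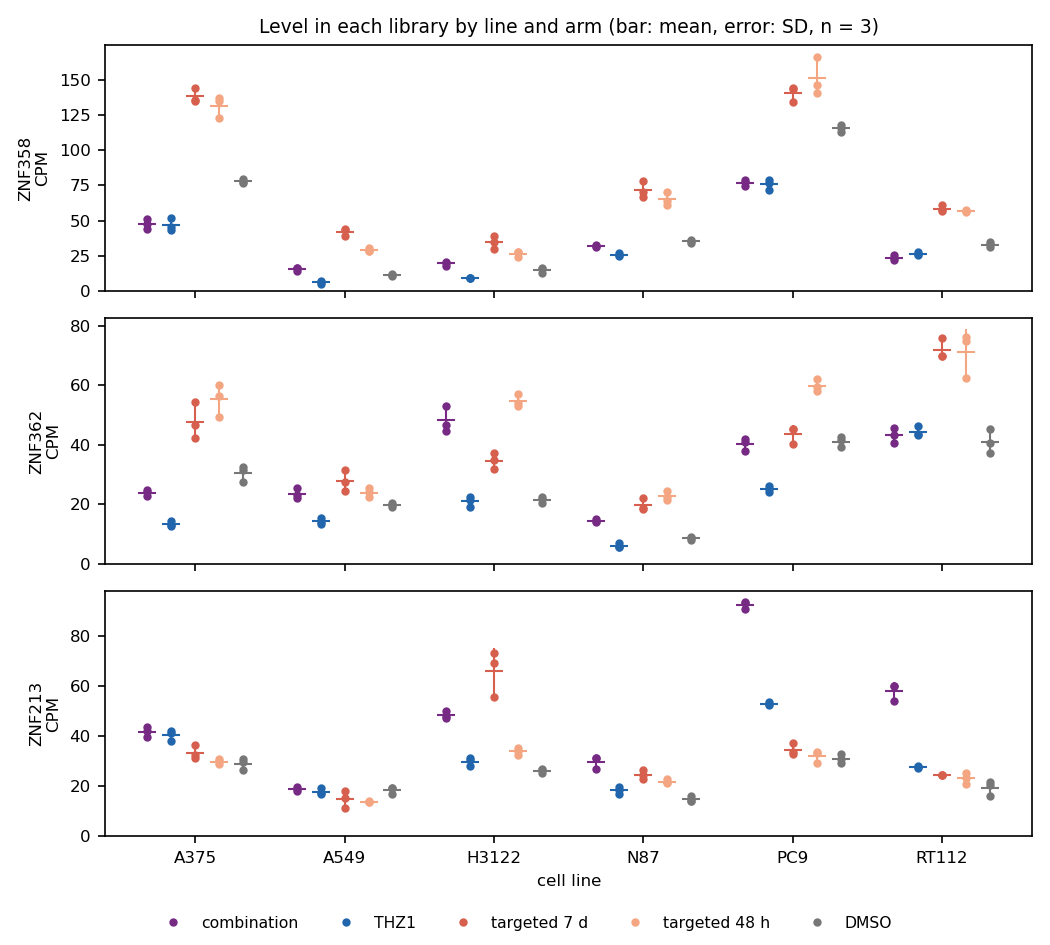
CPM of ZNF358, ZNF362 and ZNF213 in every library (points) with the mean and SD of 3 (bars), by line and arm. ZNF358 and ZNF362 are higher with the targeted drug at 48 h than with DMSO in all 6 lines, and ZNF213 is highest with the combination in PC9, at 90 CPM or more, and in RT112.

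Within lines the largest called changes with the combination again fell on different members. In A375, ZNF326, a splicing factor of the DBIRD complex, had 56.0, 58.7 and 60.7 CPM with the combination, against 22.0, 25.9 and 22.1 CPM with vemurafenib (1.17 ± 0.10, SE; edgeR adjusted p = 8.6e-09). ZNF704 had 1.65, 1.85 and 1.84 CPM, against 10.1, 11.8 and 11.4 CPM with vemurafenib, and fell by 2.80. In N87, ZNF469 had 4.48, 5.82 and 4.28 CPM with the combination, against 1.90, 1.01 and 2.38 CPM with lapatinib. ZNF839 fell in N87 by 1.07 and ZNF784 in H3122 by 0.95. ZNF654 rose in H3122 with 20.8, 31.4 and 30.9 CPM, against 17.5, 18.9 and 19.3 CPM with crizotinib, but lost its call without combination replicate 3 or 4 or targeted replicate 2 (edgeR adjusted p = 0.0513 to 0.0662).

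ZNF750 fell in PC9 with 3.85, 2.31 and 1.43 CPM, against 8.33, 7.69 and 8.19 CPM with erlotinib (-1.73 ± 0.36, SE; edgeR adjusted p = 0.00024). In RT112 it had 50.3, 21.2 and 21.3 CPM, against 213, 49.4 and 51.7 CPM with BGJ398, where replicate 1 was the highest of each arm. Without targeted replicate 1 the RT112 change of -1.72 became -0.64 (edgeR adjusted p = 0.356), and the call was lost also without combination replicate 2 or 3 (0.0973 and 0.101). Over all members, the combination changed 51 up and 61 down in A375, 23 and 14 in A549, 16 and 29 in H3122, 47 and 53 in N87, 43 and 73 in PC9 and 35 and 56 in RT112. The shares of all genes were 35.1% up and 33.4% down in A375, 20.3% and 20.6% in A549, 15.3% and 14.3% in H3122, 27.0% and 28.8% in N87, 33.4% and 34.9% in PC9 and 32.8% and 31.4% in RT112. In PC9 44.0% of members were called down, above that share, and in A549 8.81%, below it. Members called up were below the share of all genes in A375, A549, H3122, PC9 and RT112, and near it in N87. By the interaction test, 140 of 155 members differed between lines, against 92.4% of all genes.

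Set against THZ1 alone, the combination shows what the targeted drug added to THZ1. Across lines 15 members rose and 5 fell, or 9.68% up and 3.23% down, against 10.1% and 10.6% of all genes. Without a filter on low counts 5 were called, 1 up and 4 down. All 5 that fell lacked a KRAB box. Of the KRAB members, 8 of 50 rose and none fell by edgeR, with 15 at an unadjusted p under 0.05 in either direction, and 6 of 89 members without a box rose. ZNF292, a gene of neurodevelopmental disorders, had 21.5, 60.3 and 174 CPM (lowest, median, highest) with the combination, against 18.0, 38.1 and 55.6 CPM with THZ1. It was higher in all 6 lines, a condition for naming it, overlapped in A549 and H3122, and changed by 0.67 ± 0.20 (SE; edgeR adjusted p = 0.0214).

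ZNF428 rose by 0.53 ± 0.14 (SE; edgeR adjusted p = 0.012) and ZNF260 by 0.56 ± 0.14 (SE; edgeR adjusted p = 0.00882), with no overlap in any line. The KRAB genes ZNF84 and ZNF548 rose by 0.52 and 0.65, and ZNF213 by 0.64. ZNF511 fell by 0.60 ± 0.13 (SE; edgeR adjusted p = 0.00519), with 12.5, 21.8 and 40.4 CPM with the combination, against 25.3, 33.2 and 48.3 CPM with THZ1. ZNF146, a protein made almost wholly of fingers, fell by 0.46, ZNF787 by 0.51, ZNF142 by 0.48 and ZNF639 by 0.34. ZNF428, ZNF260 and ZNF664 were called up in each of the 6 lines, and ZNF146, ZNF511 and ZNF710 down. That is 3 of 155 members each way, against 2.88% and 7.15% of all genes.

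Of the 20, ZNF511 and ZNF84 kept the call whichever line was left out, though ZNF84 lost it without a filter on low counts (edgeR adjusted p = 0.0699). ZNF213, ZNF260, ZNF292, ZNF428, ZNF548 and ZNF639 lost it there too (0.0757 to 0.123), ZNF639 also in the fit of the 2 arms alone (0.0688), and ZNF213 and ZNF548 also with filterByExpr (0.0595 and 0.0514). Without N87, 2 of the 20 kept it and without A549 4, with 10 without PC9, 13 without RT112, 14 without H3122 and 17 without A375. The named members that lost it did so without A549 and without N87 in each case (edgeR adjusted p = 0.0502 to 0.112). Those also lost without PC9 were ZNF213, ZNF292, ZNF548 and ZNF787, without RT112 ZNF146, ZNF213 and ZNF292, and without H3122 ZNF548.

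In single lines, ZNF358 rose in A549 with 16.7, 16.2 and 14.5 CPM under the combination, against 5.28, 7.47 and 6.15 CPM under THZ1 (1.29 ± 0.12, SE; edgeR adjusted p = 2.9e-09). ZNF593 fell there with 14.6, 12.4 and 13.1 CPM, against 30.9, 29.6 and 28.2 CPM. ZNF704 rose in H3122 and PC9, by 1.16 and 1.00, and ZNF608 rose in A375 by 1.12 but fell in RT112, where its CPM were 0.637, 0.336 and 0.468 with the combination, against 1.48, 1.18 and 1.38 with THZ1. In H3122, ZNF764 had 5.57, 4.89 and 5.92 CPM, against 6.09, 7.54 and 9.58 CPM with THZ1, and its call was lost without combination replicate 3 or THZ1 replicate 4 (edgeR adjusted p = 0.0552 and 0.102). Members called were 29 up and 26 down in A375, 36 and 56 in A549, 45 and 19 in H3122, 73 and 39 in N87, 57 and 35 in PC9 and 26 and 37 in RT112. The shares of all genes were 20.7% and 20.4% in A375, 35.0% and 36.0% in A549, 24.7% and 24.5% in H3122, 35.5% and 36.6% in N87, 32.8% and 28.7% in PC9 and 23.7% and 28.3% in RT112. Of the 155 members, 137 differed between lines by the interaction test, against 91.8% of all genes.

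Between 7 days and 48 h of the targeted drug no member was called across lines, and 0.0% of all genes were. At an unadjusted p under 0.05 there were 9 members, 7 higher and 2 lower, against 6.41% of all genes, and DESeq2 called 1, ZNF316 (adjusted p = 0.0354), and 0.211% of all genes. ZNF316, a KRAB gene, had 36.4, 74.0 and 117 CPM (lowest, median, highest) over 18 libraries at 7 days, against 30.2, 50.5 and 67.3 CPM over 18 at 48 h. It was higher in each of the 6 lines with no overlap (0.48 ± 0.12, SE; edgeR adjusted p = 0.385) and was called up in all 6 when lines were tested alone, against 0.249% of all genes. The same direction in all 6 lines was a condition for naming it. The line changes of ZNF316 ran from 0.15 in N87 to 1.06 in H3122, and the largest edgeR adjusted p was 0.0413. ZNF787 and ZNF251 were 0.33 and 0.28 higher, and ZNF740 and ZNF445, a KRAB protein that guards imprints, were 0.30 and 0.24 lower on the log2 scale (edgeR adjusted p = 0.682 to 0.813).

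Within lines the counts at 7 days differed. In H3122, 65 members were higher and 34 lower, while in N87 18 were higher and 58 lower, all by edgeR at an adjusted p under 0.05. Without the 7-day replicate 1 of H3122, which lay away from its group, 106 members were called there in place of 99. The counts were 26 and 30 in A375, 36 and 29 in A549, 51 and 27 in PC9 and 15 and 14 in RT112. Of all genes, 30.5% were called up and 33.4% down in H3122, 22.3% and 20.3% in N87, 18.6% and 21.4% in A375, 27.6% and 23.7% in A549, 25.7% and 27.2% in PC9 and 18.5% each way in RT112. The summed member level was 6739 ± 561 CPM at 7 days in H3122, against 5914 ± 45 CPM at 48 h (SD, n = 3 each), and 5745 ± 135 CPM in N87, against 6335 ± 106 CPM at 48 h. ZNF275 rose in H3122 with 74.5, 79.5 and 68.0 CPM at 7 days, against 23.7, 23.0 and 21.5 CPM at 48 h (1.74 ± 0.09, SE; edgeR adjusted p = 3.7e-12), and by 1.74 also without replicate 1 of 7 days. ZNF264, a KRAB gene, fell in N87 with 13.8, 17.2 and 18.2 CPM, against 34.7, 34.5 and 38.6 CPM at 48 h. ZNF219 rose in A375 by 0.92, ZNF764 fell in A549 by 1.00 and ZNF268 fell in PC9 by 0.58. Of the 155 members, 138 differed between lines, against 90.7% of all genes.

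Some members moved in opposite directions in different lines. Of the 155 members tested in every line, 45 were called up in 1 line and down in another at 48 h of the targeted drug, against 41.6% of all genes, 32 with THZ1, against 33.6%, and 66 at 7 days against 48 h, against 54.4%. For the combination the counts were 45 against the targeted drug and 39 against THZ1, where 45.6% and 34.7% of all genes moved both ways. Each count is of 155 members, and as a share it was below that of all genes in every comparison. No test of this difference was made.

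ZNF367 was the widest of them. In PC9 it had 42.0, 39.9 and 37.2 CPM with the combination, 1.89, 2.66 and 2.09 CPM with erlotinib at 48 h and 44.5, 44.1 and 43.9 CPM with DMSO, so the combination was 4.10 ± 0.11 (log2, SE; edgeR adjusted p = 8.2e-18) above erlotinib alone. RT112 and A549 moved the same way, by 1.22 and 0.93. In A375 the combination was at a mean of 9.90 CPM, against 17.1 CPM with vemurafenib, and fell by 1.00, and in N87 it was at 11.4 CPM, against 19.1 CPM with lapatinib, and fell by 0.78. In H3122 the mean was 60.3 CPM with the combination, against 50.9 CPM with crizotinib, which was not called (0.25, edgeR adjusted p = 0.0566).

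At 7 days ZNF367 stood at 12.5 CPM in PC9, against 2.21 CPM at 48 h, a rise of 2.38, and at 17.0 CPM in H3122, against 50.9 CPM at 48 h, a fall of 1.54. With THZ1 it was at 63.3 CPM in PC9, against 44.2 CPM with DMSO, and at 17.1 CPM in A375, against 37.5 CPM with DMSO. ZNF503, a developmental repressor of the NET family, rose in A375 with the targeted drug to a mean of 98.4 CPM, against 29.2 CPM with DMSO (1.77 ± 0.08, SE; edgeR adjusted p = 2.6e-13). In A549 it was at 2.66 CPM with trametinib, against 3.92 CPM with DMSO (-0.55 ± 0.22, SE; edgeR adjusted p = 0.031). The A549 call was lost in DESeq2 and without DMSO replicate 3 or 4 or targeted replicate 2 or 3 (adjusted p = 0.0517 to 0.123). At 7 days ZNF503 had 15.4, 16.4 and 13.1 CPM in A549, against 2.28, 2.76 and 2.94 CPM at 48 h, and 24.9, 25.3 and 22.7 CPM in RT112, against 47.8, 33.1 and 32.5 CPM at 48 h. ZNF469 fell in A375 at 7 days, with 21.2, 22.3 and 29.8 CPM against 70.0, 68.8 and 69.9 CPM at 48 h, and rose in RT112, with 43.0, 45.7 and 40.2 CPM against 25.4, 28.1 and 24.2 CPM.

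**Figure D5:**
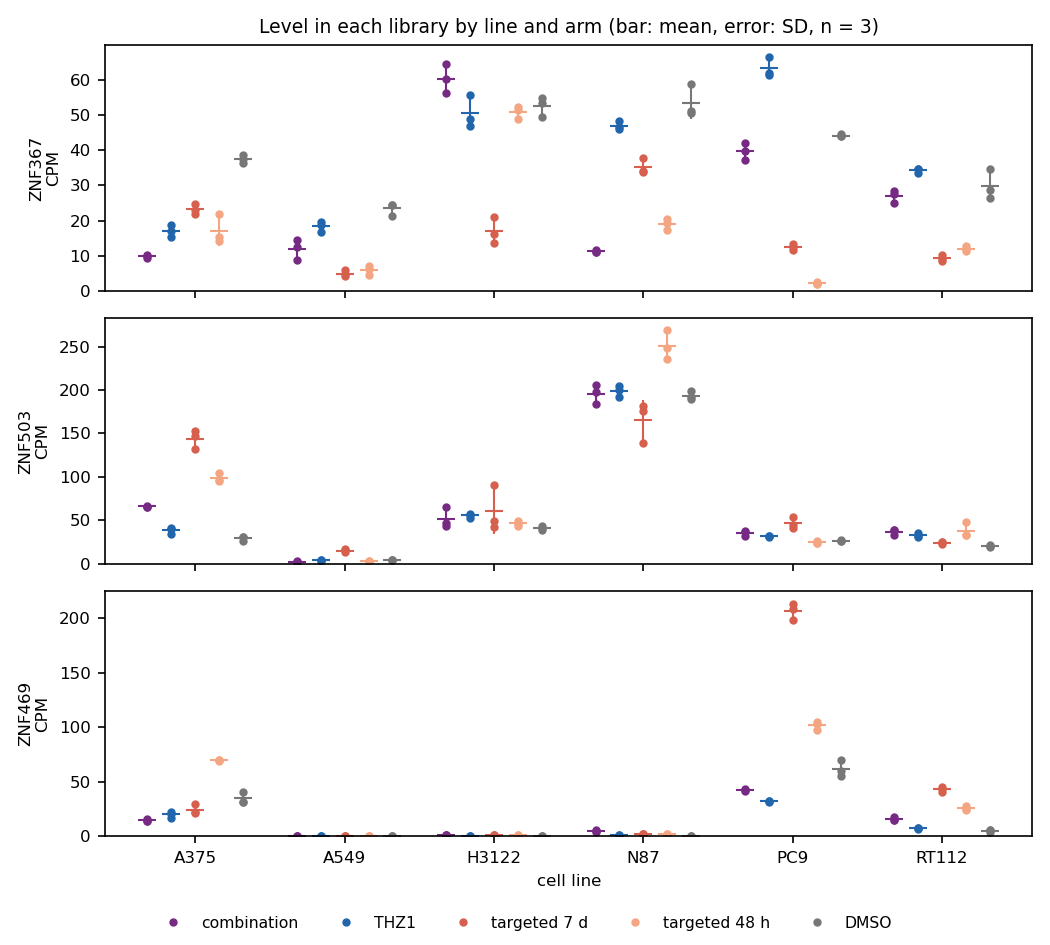
CPM of ZNF367, ZNF503 and ZNF469 in every library (points) with the mean and SD of 3 (bars), by line and arm. ZNF367 is at 2.21 CPM with the targeted drug at 48 h in PC9 and at 50.9 CPM in H3122, ZNF503 is highest in N87, and ZNF469 is near 0 in A549 in every arm.

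The other zinc finger families and the less expressed ZNF genes are given for comparison. Of 138 tested ZNF genes under 10 CPM, 44 rose and 6 fell with the targeted drug at 48 h (median 0.32), and 24 rose and none fell with the combination against THZ1 by edgeR (50 had an unadjusted p under 0.05). Of all genes tested, 18.6% rose and 18.5% fell in the first of these comparisons, and 10.1% and 10.6% in the other. The limit of 10 CPM was set on the DMSO libraries of the comparison with DMSO. Of 32 ZBTB genes 7 rose and none fell with the targeted drug, of 19 ZSCAN and ZKSCAN genes 10 rose and none fell, and of 11 ZFP genes 3 rose and 1 fell (edgeR; unadjusted p under 0.05 in 13, 11 and 6). THZ1 alone gave no call by edgeR in these 4 lists (unadjusted p under 0.05 in 11, 3, 2 and 2 genes), nor did 7 days against 48 h (5, 3, 0 and 1 genes).

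Of 16 tested genes on a list of the corepressor partners of KRAB proteins, 6 fell and 2 rose with the targeted drug at 48 h, or 37.5% down and 12.5% up, against 18.5% and 18.6% of all genes. The 2 that rose were MPHOSPH8 and CHD3, the latter by 0.54 ± 0.16 (SE; edgeR adjusted p = 0.012) and higher in 5 lines. CHD3 kept its call without any 1 line (largest edgeR adjusted p = 0.0498). MPHOSPH8 lost its call without A375, A549, PC9 or RT112 (largest edgeR adjusted p = 0.144). DNMT1, the maintenance DNA methyltransferase, fell by 1.39 ± 0.29 (SE; edgeR adjusted p = 0.000942), with a lowest, median and highest level of 39.5, 79.9 and 341 CPM over the targeted libraries, against 186, 262 and 434 CPM over the DMSO libraries. CBX5 and CBX3, heterochromatin proteins, fell by 1.02 and 0.70. TRIM28, the direct partner of the KRAB box, had 247, 345 and 547 CPM with the targeted drug, against 326, 609 and 897 CPM with DMSO, and fell by 0.61 ± 0.16 (SE; edgeR adjusted p = 0.00445). Each was lower in all 6 lines, and the largest adjusted p without any 1 line was 0.0217. In the combination against THZ1, 7 genes of the list fell and 1 rose, where 10.6% and 10.1% of all genes did, with CBX3 down by 0.67, DNMT1 by 1.04 and CBX5 by 0.75. CBX3 kept its call without any 1 line, while DNMT1 lost it without A549 or N87 and CBX5 without A549, N87 or PC9 (edgeR adjusted p up to 0.0962 and 0.114). TRIM28 was not called there (-0.38, edgeR adjusted p = 0.082). The 1 that rose was CHD3, by 0.62 (edgeR adjusted p = 0.0126), and it lost its call without A549 or N87. In the combination against the targeted drug, TASOR fell by 0.47 (edgeR adjusted p = 0.0203), where 4.34% of all genes fell. TASOR lost that call without A375 or RT112. Whether the change of these genes bears on that of the KRAB members was not tested.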

How the data were processed

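The 90 RNA-seq libraries were made with a kit that does not keep strand, so a gene and an overlapping antisense gene cannot be told apart. The authors deposited expected counts per gene, made with RSEM 1.2.12 and Bowtie2 2.2.1 on hg19, per the submitters' processing notes. These were rounded to whole numbers for tests, and CPM are expected counts per 1000000 of the library. The DMSO libraries both chose the members and are the reference of 2 comparisons. The members and gene lists were chosen with earlier results of these data known.

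Across lines, the quasi-likelihood test of edgeR 4.0.16 in R 4.3.3 was run on 30 sums of line and arm, with line terms and TMM scaling, for genes that passed 1 CPM in 3 or more libraries of each line. Within lines, 15 libraries were fitted after filterByExpr, and the interaction of line and arm used all 90. Calls had a Benjamini-Hochberg adjusted p under 0.05. Scripts were tested on simulated counts. Alternatives were DESeq2 1.42.0, other scaling and filters, the 2 arms alone, left-out lines or replicates and a replicate block. Replicate numbers came from the labels: of 30 comparisons within lines, 8 shared 3 numbers, and in 0 of these were the samples paired by the correlation of their deviations (r over 0.1 in every pair was required).

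Named members are, per comparison across lines, the 6 called up and 6 called down with the largest change among those with 1 direction in all 6 lines (filled up to 3 by smallest p where fewer qualified), the member with the largest called change each way in each line, the 2 with the widest range among those called in opposite directions, the 5 highest, the 3 on each side of 10 CPM and the 5 with the widest range between lines, and at most 4 called corepressor genes per comparison. Members called in every line, ZNF91, ZNF532, ZNF160, ZNF28, ZNF468, ZNF320, CHD3 and MPHOSPH8 were named after their values were seen. For members named by their change across lines, the same direction in all 6 lines was fixed by the choice and adds no support. KRAB boxes were scored by a profile in the longest reading frame of each protein-coding GENCODE transcript of a gene. Fingers were counted by pattern in the longest of these frames. Promoters came from RefSeq.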

Additional observations from a re-analysis of the deposited data

Results flagged for a closer look

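Of 45 named changes by line, 3 held a line far from the other 5 (Dixon's 95% limit of 0.625 for 6 values), and chance gives about 1 in 20. ZNF358 changed by 1.39 in A549 with the targeted drug at 48 h against DMSO, while the other lines lay between 0.49 and 0.75. ZNF473 changed by -0.0058 in H3122 in the same comparison, while the other lines lay between -1.02 and -0.67. ZNF787 changed by 1.08 in H3122 between 7 days and 48 h of the targeted drug, while the other lines lay between 0.04 and 0.25.

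Of the members called in opposite directions in 2 lines, those with the widest range of line changes in each comparison were looked at, and in 5 cases the interaction of line and arm over all 6 lines was called by edgeR. The others, ZNF469, ZNF608 and ZNF618, were near 0 in a line and their interaction was not tested. The 5 cases were picked for opposite calls in these same libraries, so a called interaction was largely set by that choice and adds no support. Of all genes, the interaction was called in 93.7% with the targeted drug and in 83.9% with THZ1. The share was 92.4% for the combination against the targeted drug and 90.7% for 7 days against 48 h. The error of this test is the spread between libraries of a group, which may be technical. ZNF503 changed with the targeted drug by 1.77 in A375 and by -0.55 in A549 (interaction adjusted p = 5.3e-13), and at 7 days against 48 h by 2.53 in A549 and by -0.63 in RT112 (adjusted p = 5.7e-17). ZNF367 changed with THZ1 by 0.45 in PC9 and by -1.27 in A375 (adjusted p = 3.2e-14). With the combination against the targeted drug it changed by 4.10 in PC9 and by -0.997 in A375 (adjusted p = 1.22e-33). At 7 days against 48 h it changed by 2.38 in PC9 and by -1.54 in H3122 (adjusted p = 3.33e-27). Drug, dose and line cannot be told apart in these differences.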

How the results depend on the processing

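No result reversed. Of the counts of called members under another setting, 743 stayed within 1.5 times and 47 did not. With the targeted drug against DMSO, 22 members were called without a filter, 11 of them up, and with lines left out 33 to 45 were called, 24 to 34 up and 5 to 14 down. For THZ1 against DMSO, DESeq2 called 2 members, both down, and the 2 arms alone 4, all 4 down. For the combination against the targeted drug, the 2 arms alone called 1 member (0 up, 1 down), filterByExpr 13 (3 up, 10 down) and no filter 4 (1 up, 3 down), and with lines left out 2 to 26 were called (0 to 6 up, 2 to 20 down). For the combination against THZ1, filterByExpr called 11 (6 up), no filter 5 (1 up) and DESeq2 23 up, and with lines left out 2 to 18 were called (1 to 13 up, 1 to 7 down). For 7 days against 48 h, DESeq2 called 1, up. Within lines, the THZ1 count was 32 by DESeq2 in N87, against 50, and 12 to 29 in H3122 with replicates left out. The cause of these shifts was not tested.

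The replicate block kept all 30 counts within lines within 1.5 times (ratios of 0.822 to 1.34) and changed 1 of 102 named calls: ZNF367 with THZ1 in A549 became -0.24 (edgeR adjusted p = 0.112). Same-numbered samples correlated at -0.11 to 0.37 in their deviations, and at 0.149 or less outside RT112. Low counts limit the members near 0 in a line, which were not tested across lines.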
